A study of Taxus x media with 6 samples.

Results

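In twigs of Taxus × media, 75 of 43846 listed genes (0.171%) varied widely among the female trees and among the male trees alike, while the 2 sexes had similar levels. A gene was counted when its highest TPM + 1 was at least 4 times its lowest among the 3 female libraries and also among the 3 male libraries, when its highest value reached 10 TPM in each sex, and when the geometric means of the sexes lay within 1.5-fold of each other. The 100 genes of highest mean TPM were to be left out, and none of them met the other conditions. TPM counts fragments per transcript length and sets every library to nearly the same total. The measured values themselves chose these genes, so their width of variation, their level and the closeness of the sexes describe the choice and were not tested.

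The libraries came from 3 female and 3 male trees of this evergreen hybrid yew, grown at 25 °C with 12 h of light and 12 h of dark per day, with no other treatment named. Poly(A) RNA was taken from twigs of independent trees. Tree numbers run from 1 to 3 in each sex, and no label pairs a female with a male tree, while parentage, age and harvest time were not used here. The series was made to compare the sexes, with taxoids, the yew diterpenoids that include paclitaxel, named in its title. The deposited identifiers come from a de novo assembly and are paired with no gene name, so neither the function of a gene nor the tissue markers of a twig could be looked up.

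Yews bear female and male reproductive structures on separate trees, and twigs hold needles, bark and wood, in which much of the specialised metabolism of the plant takes place. Genes of defence, light response and specialised metabolism are commonly inducible in conifers, so their transcripts can differ between neighbouring trees of the same kind. In bulk tissue, fewer cells of a type and less RNA per cell cannot be told apart.

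The variable genes were mostly low in the number 1 tree of each sex. The median member stood at 1.67, 11.6 and 10.1 TPM in female trees 1, 2 and 3, and at 1.58, 11.4 and 8.18 TPM in male trees 1, 2 and 3. In female tree 1, 48 of the 75 were under 2 TPM, against 5 and 10 in female trees 2 and 3. In male tree 1, 42 were under 2 TPM, against 7 and 11 in male trees 2 and 3. Female tree 1 listed 16 members at 0 and male tree 1 listed 18, whereas the other 4 libraries listed 3 or 4 each. The 53 genes that varied as widely but whose sexes were more than 1.5-fold apart had medians of 1.87, 10.3 and 11.3 TPM in female trees 1, 2 and 3 and 2.98, 12.8 and 11.5 TPM in male trees 1, 2 and 3, so low number 1 trees were not limited to the members.

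**Figure D1:**
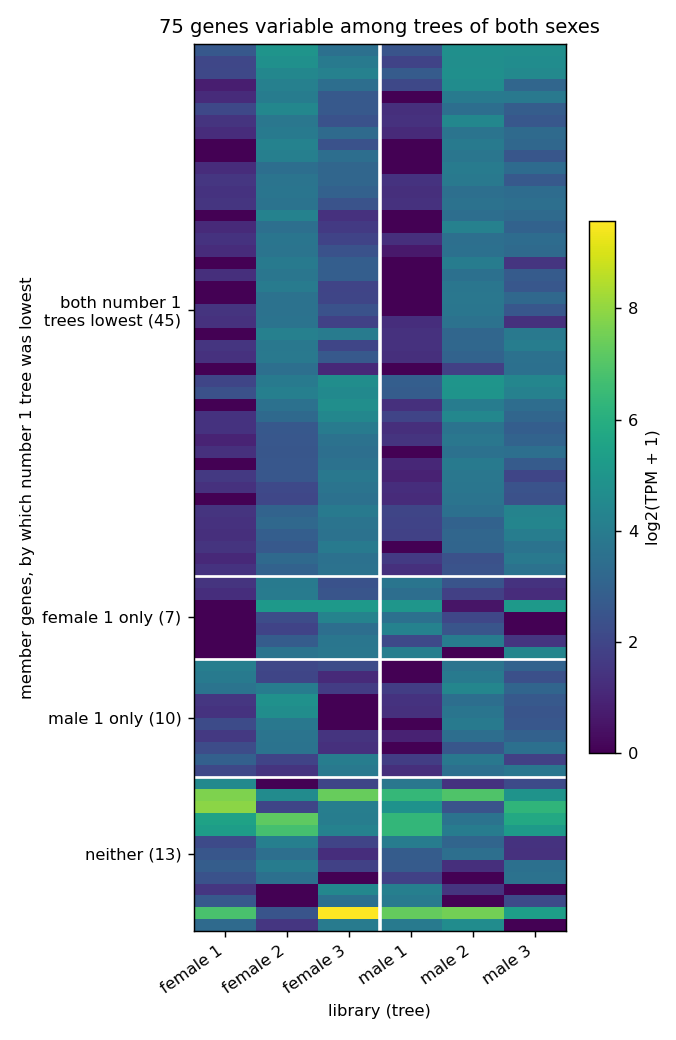
Each row is 1 of the 75 genes and each column a library, with colour for log2(TPM + 1); rows are grouped by whether female tree 1 and male tree 1 were the lowest of their sex. The group of 45 genes at the top is dark in both number 1 trees, and the brightest rows lie among the 13 genes at the bottom.

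The number 1 trees also stood apart in the whole tables. Fewer genes were above 0 in them, 38652 in female tree 1 and 39636 in male tree 1, against 40627 to 41505 in the other 4 libraries. Their median listed gene was at 3.23 and 3.78 TPM, against 4.20 to 5.25 TPM. Their 100 most abundant genes took 31.3% and 31.6% of the TPM, against 27.1% to 29.7%. The part of these library differences in the members' pattern was not tested.

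The lowest trees of the 2 sexes went together. Female tree 1 was the lowest female library for 52 of the 75 members and male tree 1 the lowest male library for 55. Both held for 45 members (60.0%). An exact 95% binomial interval of this share was 48.0% to 71.2%, but it takes the genes as independent draws. They share the 6 libraries and are all the genes that met the rule. The interval therefore measures neither the spread between trees nor the error of fragment counts. Of the 52 members with female tree 1 lowest, 86.5% also had male tree 1 lowest. Of the other 23 members this held for 10 (43.5%). The rule set no condition on which tree was lowest, but it did hold the sexes to similar geometric means.

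The same joint pattern was the commonest among all listed genes, at a lower share. Among the 11907 other genes that reached 10 TPM in each sex it was not: female tree 2 with male tree 3 led there, at 17.3%. Female tree 1 and male tree 1 were both lowest in 30.2% of all 43846 genes and in 16.4% of the 11907 other genes that reached 10 TPM in each sex outside the 100 most abundant. It held for 22 (41.5%) of the 53 equally variable genes with the sexes apart. Over all listed genes, male tree 1 was lowest in 63.7% of those with female tree 1 lowest and in 41.7% of the others. Over the 53 genes with the sexes apart, these shares were 73.3% and 56.5%. Libraries of a sex that tied for lowest, as at a listed 0, were counted for the lower tree number. No member had a tie, but the shares over all listed genes include ties, whose number was not worked out. These shares stand side by side as a description, and no test of the difference was made. After quantile normalization, which gives all libraries the same set of values, 57 genes met the rule, and the share was 35.1% of them and 11.2% of all genes. That step can break ties at a listed 0, so 11.2% is not on the same footing as 30.2%. With a pseudocount of 5 in place of 1, 7 genes met the rule and the share was 0%.

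At the other end, female tree 2 and male tree 2 were together the highest libraries of their sex in 30 members (40%), the commonest of the 9 joint patterns. Chosen again without 1 library, that share was 27.6% when female tree 1 was dropped and 70.3% when female tree 3 was. It was 25.0% when male tree 1 was dropped and 48.1% when male tree 3 was. With fewer trees left in a sex, these shares are not on the same footing as the 40%. With all 6 libraries, the share was 23.6% after TMM-type scaling, which evens out the bulk of genes between libraries. It was 21.1% after quantile normalization and 0% with a pseudocount of 5. Over all listed genes, the same pair was highest in 12.5% after TMM-type scaling and in 8.74% after quantile normalization. On the values as deposited, the pair was highest in 17.8% of all listed genes and in 15.1% of the 53 varying genes with the sexes apart. Female tree 3 with male tree 2 followed with 15 members (20%). Only 5 members (6.67%) had female tree 1 as the highest female library and 10 (13.3%) had male tree 1 as the highest male library. Over all listed genes these shares were 23.6% and 26.2%. Female tree 2 was highest in 43 members (57.3%) and male tree 2 in 48 (64%), against 43.1% and 41.9% of all listed genes. Male tree 2 was highest in 69.8% of those 43 and in 18 of the other 32. Over all listed genes, male tree 2 was highest in 41.3% of those with female tree 2 highest and in 42.4% of the others. Over the 53 genes these shares were 42.1% and 55.9%.

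**Figure D2:**
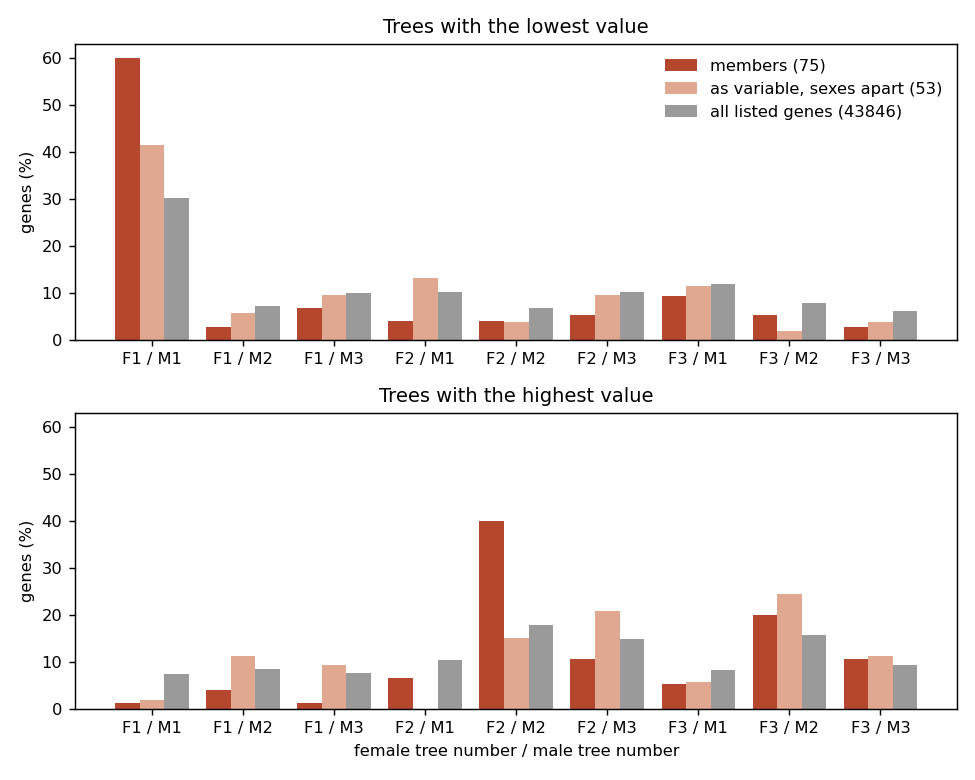
Bars give the percentage of genes with each pair of a female (F) and a male (M) tree lowest in its sex (top) and highest in its sex (bottom), for the 75 members, the 53 equally variable genes with the sexes over 1.5-fold apart, and all 43846 listed genes. F1 / M1 is the tallest bar in the top panel for all 3 sets, at 60.0% of members, and F2 / M2 in the bottom panel holds 40% of members. Ties are counted for the lower tree number.

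Taken as full orders of the trees, the members were concentrated. Of the 36 possible combinations of a female and a male order, 25 occurred, and 15 of these held 1 member each. The order with female tree 2 highest, female tree 3 between and female tree 1 lowest, together with male trees 2, 3 and 1 in the same sense, held 24 members (32.0%). Of all pairs of members, 13.2% shared their full order in both sexes. That share was 5.08% among the 53 varying genes with the sexes apart and 3.47% among all listed genes.

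The distance of the number 1 trees from the others is given as a description, since the rule asked for a wide range in both sexes and for similar means. On the log2(TPM + 1) scale, the median member was lower in female tree 1 than in the mean of female trees 2 and 3 by a difference of -1.87, and in male tree 1 by a difference of -1.90. The same differences were -1.77 and -1.72 for the median of the 53 equally variable genes with the sexes apart, and -0.11 and -0.09 for that of 10835 other genes of 5 to 15 mean TPM. Both differences were negative in 52 members and both positive in 8. Across the 75 members the female and the male difference correlated weakly (Pearson r = 0.24). The value was 0.23 across the 53 genes with the sexes apart, 0.35 across the 11907 other genes that reached 10 TPM in each sex and 0.13 across all listed genes. These are correlations across genes that share the same 6 libraries and are no evidence from independent samples.

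**Figure D3:**
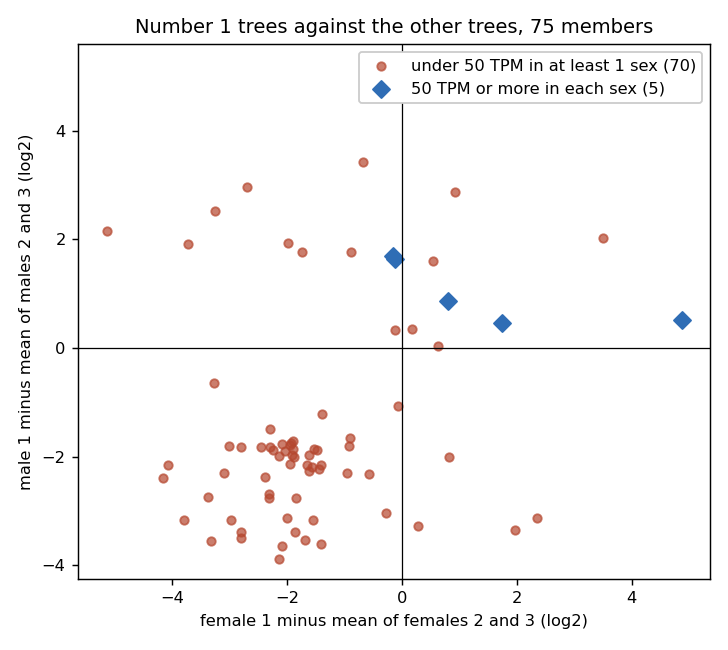
Each point is a member, placed by the log2(TPM + 1) difference between female tree 1 and the mean of the other female trees (horizontal) and between male tree 1 and the mean of the other male trees (vertical). Most points lie in the lower left, with both number 1 trees below the others, and none of the 5 diamonds, which mark members that reached 50 TPM in each sex, lies there.

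Between the sexes no pair of trees gave a strong relation. Correlations of deviations from the mean of the sex over the 75 members gave 9 values, 1 for each female tree with each male tree, which ranged from -0.39, for female tree 2 with male tree 1, to 0.34, for female tree 2 with male tree 3. The same 2 pairs gave -0.30 and 0.26 over the 11907 other genes that reached 10 TPM in each sex. Over the 53 varying genes with the sexes apart they gave -0.24 and 0.26. The pair that was most often highest together, female tree 2 and male tree 2, gave 0.16, and this value was -0.05 and -0.18 when the members were chosen without female tree 1 or male tree 1. Same-numbered trees gave 0.24, 0.16 and -0.24 for numbers 1, 2 and 3, so the 3 numbers did not share a sign.

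Among the members, a single low tree was commoner than a single high tree, by less in females (56%) than in males (78.7%). On the log2 scale the middle tree lay nearer to the highest than to the lowest in 42 members among females and in 59 members among males. Female tree 1 was that single low tree in 34 of the 42, and male tree 1 in 44 of the 59. In 23 members the number 1 trees of both sexes were the single low trees. Where 1 female tree was high instead, it was female tree 2 in 23 members, female tree 3 in 6 and female tree 1 in 4. Where 1 male tree was high, it was male tree 2 in 10 members, male tree 1 in 4 and male tree 3 in 2. These shapes were worked out for the members only, so no share over other genes stands beside them. Whatever the shape, female tree 1 was the lowest female library in 69.3% of members and male tree 1 the lowest male library in 73.3%. Over all listed genes these shares were 47.3% and 52.1%, with ties counted for the lower tree number.

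Most members were low beside the other genes that reached 10 TPM in each sex. The highest of the 6 values was under 20 TPM in 53 of the 75, between 20 and 100 TPM in 17 and above 100 TPM in 5. The median member had a mean of 6.96 TPM. The median listed gene stood at 3.23 to 5.25 TPM in the 6 libraries. The median of the 11907 other genes that reached 10 TPM in each sex stood at 23.04 to 24.85 TPM. The median ratio of highest to lowest was 5.73 among female and 5.90 among male libraries, and 16 members had ratios of at least 10 in both sexes. In 34 members at least 1 library was listed at 0, and in 14 a female and a male library were. Since the number of reads behind a listed 0 is not known, no fold is given against it, and the ratio of such a gene rests on the 1 added to each value. With the highest value at 10 TPM or more, a listed 0 gives a ratio above 10 in that sex. The 16 members therefore include all 14, and their number largely restates the zeros.

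Low values in the tables lay on steps, and the members' values lay on them too. Where a gene is counted in whole fragments, the TPM of that gene is its number of fragments times a constant of the gene and library, so equal small numbers of fragments in 2 libraries give the same ratio of TPM for gene after gene. Among the 7767 listed genes with 1 to 4 TPM in both number 1 trees, the ratio of female tree 1 to male tree 1 had a sharp peak at 1.12, with 592 genes within 0.4% of it against a median of 32 in windows of that width nearby. All 22 members in that range lay within 1% of this peak (15 members), of 0.559, for fragment numbers in a proportion of 1 to 2 (5 members), or of 2.23, for a proportion of 2 to 1 (2 members). Among all listed genes in the range, 20.3% did.

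**Figure D4:**
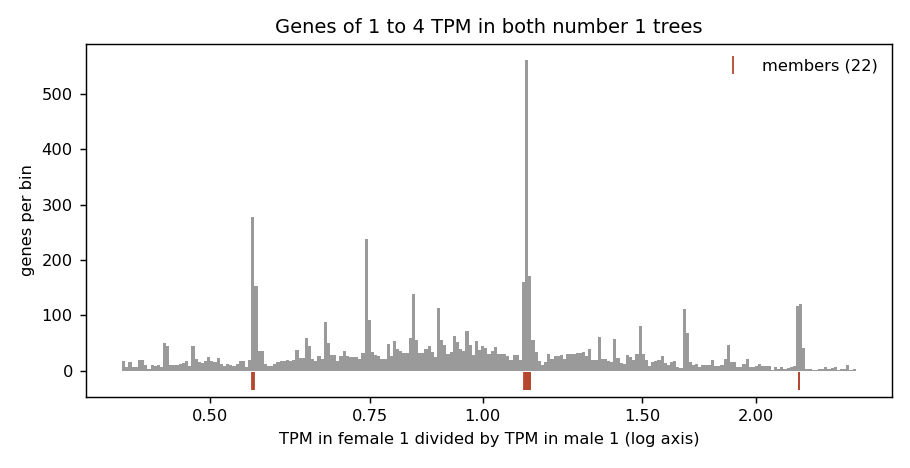
Grey bars count listed genes by the ratio of their TPM in female tree 1 to that in male tree 1, for the 7767 genes of 1 to 4 TPM in both, on a log axis, and red ticks mark the 22 members among them. The ticks stand only under the tall peaks at 1.12, 0.559 and 2.23.

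The size of a step sets how many fragments a member rests on. Steps were searched in female tree 1, female tree 3 and male tree 1, where 67 members had at least 2 values above 0. In 53 of the 67 (79.1%) the values above 0 were within 0.1 of whole numbers of a common step, with the lowest value at 1, 2 or 3 steps. Of the 45 members with all 3 values above 0 this held for 34 (75.6%), and of the 22 with 2 such values, which match more easily, for 19. It held for 15 of 110 listed genes (13.6%) that had over 20 TPM in all 3 libraries and a 3-fold range, where a step would be small beside the value. That share can be set only beside the 45 members with 3 values, and it is a description of genes of higher level. The lowest value was a single step in 44 of the 53. The step was worth 1.49 TPM at the median, and the highest of the 3 libraries had 8 steps at the median and at most 15 steps in 51 of the 53. Expressed in the same steps, the highest of all 6 libraries was about 10 steps at the median. These are the smallest whole numbers that match, they could be multiples of them, and they were worked out after the values had been seen. How far counting error at such numbers enters the members' variation was not tested.

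The 5 members that reached 50 TPM in each sex had other trees lowest. All 5 were above 0 in all 6 libraries, and in none of them was a number 1 tree the lowest of its sex. Their summed level was 647, 285 and 967 TPM in female trees 1, 2 and 3 and 426, 333 and 236 TPM in male trees 1, 2 and 3. The other 70 members together had 189, 801 and 621 TPM in the female trees and 269, 807 and 615 TPM in the male trees. These are sums, and the 5 genes were not alike: only TRINITY_DN18520_c0_g1 was higher in tree 1 than in tree 2 in both sexes. These 5 genes, picked out after their values were seen, held between 26.2% and 77.4% of the members' TPM in a library.

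The gene with the highest single value had 113, 4.63 and 758 TPM in female trees 1, 2 and 3 and 157, 183 and 40.1 TPM in male trees 1, 2 and 3. Its female libraries differed by a ratio of 135, the widest of any member, and its male libraries by 4.47. Another had 208, 23.7 and 159 TPM in the female trees and 82.1, 120 and 29.1 TPM in the male trees. In both genes female tree 2 was the lowest female library and male tree 3 the lowest male library. The values of the 2 sexes overlapped in each.

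TRINITY_DN18520_c0_g1 had 242, 3.02 and 16.1 TPM in female trees 1, 2 and 3 and 28.3, 4.40 and 76.2 TPM in male trees 1, 2 and 3. It was low in the number 2 tree of each sex and high in female tree 1 and male tree 3. It averaged 86.9 ± 134 TPM over the female trees, against 36.3 ± 36.6 TPM over the male trees (SD, n = 3 each), with a log2 difference of 0.15 ± 1.63 (SE; limma adjusted p = 0.968) on the log2(TPM + 1) scale. The other 2 of the 5 belonged to 1 assembly component.

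Within the commonest pattern, with female tree 2 and male tree 2 highest, the members were ranked by the smaller of their ratios in the 2 sexes. The first 2 were listed at 0 in both number 1 trees, so their ratios rest on the 1 added to each value, and other members with this pattern had a wider ratio in 1 sex. TRINITY_DN12530_c0_g2 had 13.9 and 6.26 TPM in female trees 2 and 3 and 15.1 and 1.79 TPM in male trees 2 and 3. TRINITY_DN31463_c0_g2 had 18.1 and 4.29 TPM in female trees 2 and 3 and 13.8 and 8.18 TPM in male trees 2 and 3. In each gene the order of the trees was 2, 3, 1 in both sexes.

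Of the members, 3 ran the opposite way, with female tree 2 and male tree 2 lowest. By the smaller of the ratios in the 2 sexes the first of these was TRINITY_DN18520_c0_g1, and next came TRINITY_DN18152_c0_g1, with 5.45, 0 and 10.6 TPM in female trees 1, 2 and 3 and 14.5, 0 and 3.47 TPM in male trees 1, 2 and 3. It was listed at 0 in both number 2 trees and above 3 TPM in the other 4 libraries. The limma log2 differences between the sexes were 0.42 ± 1.33, -0.14 ± 1.38 and 0.04 ± 1.26 (SE) for TRINITY_DN12530_c0_g2, TRINITY_DN31463_c0_g2 and TRINITY_DN18152_c0_g1, with adjusted p of 0.884, 0.963 and 0.989. The rule held the sexes close and asked for a wide range in each. A difference smaller than its error therefore follows from the choice, and nothing is read from it.

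**Figure D5:**
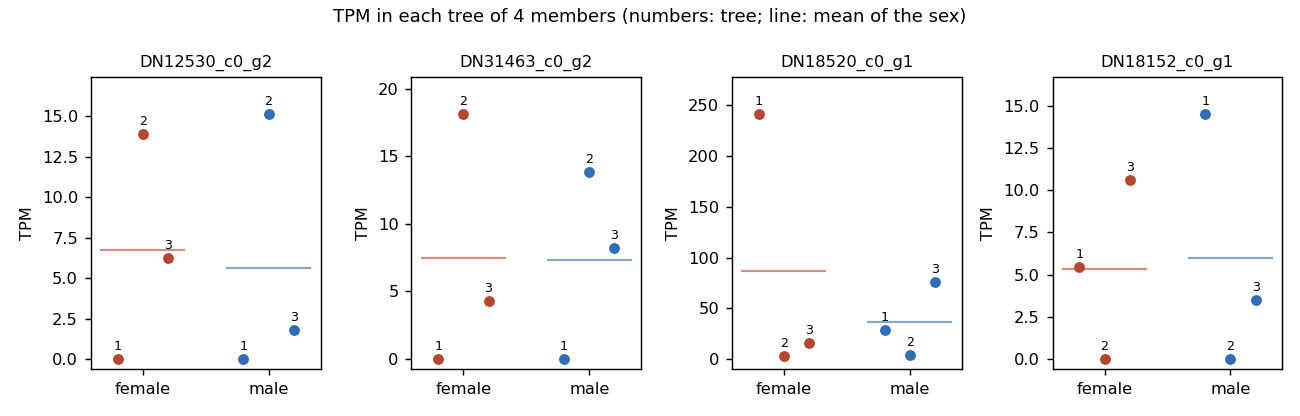
Points give the TPM of 4 members in each female (left) and male (right) tree, numbered by tree, with a line at the mean of the sex. The 2 genes on the left peak in the number 2 trees and are at 0 in the number 1 trees, and the 2 on the right are lowest in the number 2 trees.

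A few members were near 0 in 1 tree of each sex and level in the other trees. The member whose smaller ratio of the 2 sexes was widest, at 24.5 among its male libraries, was listed at 0, 34.2 and 34.2 TPM in female trees 1, 2 and 3 and at 31.2, 0.46 and 34.7 TPM in male trees 1, 2 and 3. Another was listed at 0, 11.5 and 13.0 TPM in the female trees and at 16.0, 0 and 19.2 TPM in the male trees. Female tree 1 and male tree 2 were the lowest of their sex in both genes. Of the 14 members listed at 0 in a female and a male library, 7 had their zeros in both number 1 trees and 7 in another combination.

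Of the 75 members, 2 shared an assembly component with another member. How many of as many genes drawn from the whole list would share one was not worked out. A component joins sequences that were connected in the assembly, and its genes can be copies, sequence versions or fragments. The 75 members came from 74 components, and 30 of them (40%) were the only listed gene of theirs, against 35.6% of all listed genes. The component with 2 members held a pair of genes with the same order of trees within each sex. The first had 44.5, 147 and 15.6 TPM in female trees 1, 2 and 3 and 79.9, 11.4 and 53.9 TPM in male trees 1, 2 and 3. The second had 39.2, 106 and 17.7 TPM in the female trees and 79.0, 15.1 and 36.5 TPM in the male trees. Both were highest in female tree 2 and male tree 1 and lowest in female tree 3 and male tree 2, and their reads may have been divided between them.

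For the 45 members with other listed genes in the component, those other genes varied less. Their summed TPM had a median ratio of highest to lowest of 2.19 among female and 1.70 among male libraries, and reached 4 in both sexes for 3 of the 45 members and in neither sex for 37. The member itself was chosen for wide ratios and the other genes were not, so this contrast in width follows from the choice and is given as a description. The other genes were lowest in female tree 1 and male tree 1 for 16 of the 45 (35.6%), against 29 of the 45 members themselves (64.4%). That share was 30.2% over all listed genes, each taken singly. Where a member was highest in a female tree, the other genes were lowest in that tree in 3 of 45 cases, and for male trees in 8 of 45. A component total that stayed within 2-fold in both sexes was seen for 9 of the 45. Neither the counts of opposite trees nor that of steady totals was worked out for other components, so nothing is read from them.

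No member was called different between the sexes, a contrast that the choice of genes held small. All 75 passed the filter of 1 TPM in 3 libraries and were tested. Limma called 0 of 75 at an adjusted p under 0.05, against 11.6% of the 41430 genes tested. At an unadjusted p under 0.05 there were 0 of 75, against 10346 of the 41430. In 0 members did all female libraries lie above or below all male libraries, against 12.6% and 18.4% of tested genes. The rule used this contrast, so nothing is read from these counts. The geometric mean was higher in female trees for 34 members and higher in male trees for 41.

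The membership rests on 3 trees per sex and on fixed limits. Chosen again without 1 library, the members numbered 29 without female tree 1, 21 without female tree 2 and 37 without female tree 3. Among males, dropping tree 1 left 16 members, dropping tree 2 left 28 and dropping tree 3 left 52. A range over fewer trees can only be narrower. Without both number 1 trees 9 genes met the rule, 6 of them among the 75. At the edge of the limits, the member of narrowest range had a ratio of 4.01, and the nearest gene outside had 3.91. The lower of the 2 highest values was 10.0 TPM just inside and 9.94 TPM just outside, and the fold between the sexes was 1.474 just inside and 1.505 just outside.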

How the data were processed

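For each library the authors deposited a list of assembled genes with a value each. These deposited values were taken to be TPM: values are not whole, and each library sums to between 997065 and 998035. Identifiers are in the style of the Trinity assembler, per the file headers and rows. The quantifier, the assembly and its annotation: not given in the sources used here. The depth per library is unknown.

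The 6 tables were joined by gene identifier. Ratios and geometric means were taken on TPM + 1. Female and male trees were compared on log2(TPM + 1) with limma 3.58.1 under R 4.3.3, sex being the only term and the variance prior following mean level, over 41430 genes with at least 1 TPM in 3 libraries, two-sided, with Benjamini-Hochberg adjustment over all of them at 0.05. Log2 differences are female minus male. The fit was tested on simulated data. Patterns, components and correlations were computed in Python 3.11.15 and are descriptions with no test. Libraries of a sex that tied for highest or lowest were counted for the lower tree number. P-values measure only the spread between these libraries. The step of a gene was searched in female trees 1 and 3 and male tree 1.

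At most 4 members were to be named: the 2 with the commonest pair of highest trees and the 2 with those trees lowest that had the largest smaller ratio over the sexes. The members and rules were chosen with earlier results of these data known. The alternatives were other pseudocounts, TMM-type scaling, quantile normalization, other limits, component sums, the replicate block and each library left out.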

Additional observations from a re-analysis of the deposited data

How the results depend on the processing

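The count of members follows the limits. Against 75 as reported, it was 7 with a pseudocount of 5, 140 and 16 with ratios of at least 3 and 8, 476, 12 and 5 with no minimum and with minimums of 20 and 50 TPM, 41 with a stricter limit on the fold between the sexes and 48 in component sums. It was 16 to 52 without 1 library and 9 without both number 1 trees. TMM-type scaling gave 72 genes, 57 of them among the 75, and quantile normalization 57 genes, 40 among the 75. The share with both number 1 trees lowest, 60.0%, was 51.4% after TMM-type scaling (22.2% of all genes) and 35.1% after quantile normalization (11.2% of all genes). It was 0% with a pseudocount of 5 or a minimum of 50 TPM, 43.8% with ratios of at least 8, and 57.1% to 81.0% without 1 library. The 16 genes with ratios of at least 8 include the 14 members listed at 0 in a female and a male library. The share with both number 2 trees highest, 40%, was 23.6% after TMM-type scaling (12.5% of all genes) and 21.1% after quantile normalization (8.74% of all genes). It was 0% with a pseudocount of 5 and 25.0% to 70.3% without 1 library. Without 1 library a sex has fewer trees, so these ranges are not on the same footing as 60.0% and 40%. Each range was worked out only with both trees of its pair kept, and not over all genes. The correlation of female tree 2 with male tree 2 over members, 0.158, was 0.308 and -0.642 with pseudocounts of 0.1 and 5, 0.473 with ratios of at least 8 and -0.184 to 0.565 without 1 library. The share of members sharing a component, 2.67%, was 0% with ratios of at least 8 and 0% to 6.90% without 1 library. Limma called 0 members in every fit. With the replicate block 0 of 75 were called, against 3694 of the 41430 genes tested. In that fit 1 member had an unadjusted p under 0.05, against 10625 of the 41430. Over the 41430 tested genes, the deviations of trees with number 1, 2 or 3 in both sexes correlated with r of 0.175, 0.071 and -0.042, and not every tree correlated best with its own number, so the numbers were not taken as pairs. The cause was not tested. The settings with 50 TPM, without both number 1 trees, and all for the share with both number 1 trees lowest, were chosen after seeing the data. Unknown depth limits what a listed 0 shows.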
